A study of Mus musculus with 8 samples.

Results

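The genes described here are 50 myeloid and leukocyte genes of the 32859 genes in the deposited expression table. They were chosen by name, with earlier results of these data known, and grouped by the role of their products. They were followed in cells labelled as primary hepatic portal fibroblasts, the fibroblasts that lie around the portal vein and bile ducts of the liver. The cells came from normal Clec3bCreERT2;R26tdT mice, in which a tamoxifen-dependent Cre recombinase driven from the Clec3b gene switches on the red reporter tdTomato, and reporter-positive cells were collected by fluorescence-activated sorting. After sorting, cells were transduced either to overexpress Klf4 (Lenti-Klf4, 4 libraries) or with a control virus (Lenti-Ctrl, 4 libraries), and poly(A) RNA was sequenced, to ask how KLF4 bears on the passage of these fibroblasts to myofibroblasts. All 8 libraries share the reporter genotype, the sort and exposure to a lentivirus. The time after transduction, the time in culture, the mice behind each replicate, the tamoxifen schedule and any selection against leukocytes in the sort are not given in the sources used here. P-values therefore measure the spread between these libraries, which may be technical.

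Macrophages and related myeloid cells depend on the growth factor receptor CSF1R and on the transcription factor PU.1, encoded by Spi1. Many of their surface receptors carry no signalling tail and pair with the adaptors DAP12 (Tyrobp) or the Fc receptor gamma chain (Fcer1g), whose ITAM motifs recruit the kinase SYK after phosphorylation by LYN and its relatives. Receptors with ITIM motifs oppose that signal through phosphatases. In the liver, resident macrophages are called Kupffer cells, and macrophages also gather in the portal tracts beside fibroblasts during injury and repair.

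Library depth was 57306334 to 87361995 counts. Klf4, the gene carried by the virus, had 201, 241, 234 and 235 CPM in the Lenti-Klf4 libraries, against 86.8, 92.3, 83.0 and 87.1 CPM in the Lenti-Ctrl libraries, where CPM is the usual count level relative to the library total, here after TMM scaling of the totals. The Lenti-Klf4 level was 2.61-fold higher and the groups did not overlap (two-sided exact permutation p = 0.0286, the smallest that 70 splits allow). The counts do not separate the viral from the endogenous copy. Fibroblast genes were abundant in every library: the summed level of 9 of them, collagens, Vim and Pdgfra among them, was 14274 to 16044 CPM in Lenti-Klf4 and 34376 to 35553 CPM in Lenti-Ctrl. Clec3b itself, whose promoter drives the Cre, had 73 counts over the 4 Lenti-Klf4 libraries and 4 counts over the 4 Lenti-Ctrl libraries. These were too few to pass the filter on low counts. Without the filter its log2 fold change, Lenti-Klf4 over Lenti-Ctrl, was 3.93 (SE 1.24) and edgeR's adjusted p 0.0208.

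The leukocyte genes were present in the Lenti-Ctrl libraries and lower, without exception among the 50, in the Lenti-Klf4 libraries. Their summed level was 310, 425, 412 and 399 CPM in the Lenti-Klf4 libraries, against 7162, 7588, 7351 and 7236 CPM in the Lenti-Ctrl libraries. The Lenti-Klf4 mean was 18.97-fold lower, and the set took 0.0414% of the counts of a Lenti-Klf4 library against 0.686% of a Lenti-Ctrl library. Lysozyme 2 alone held 43.6% of the summed CPM in Lenti-Klf4 and 49.9% in Lenti-Ctrl. Without it the sum was 218 ± 27.1 CPM in Lenti-Klf4 and 3677 ± 56.5 CPM in Lenti-Ctrl (SD, n = 4 each), 16.87-fold lower. In bulk RNA, fewer cells of a type and less RNA per cell cannot be told apart.

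**Figure D1:**
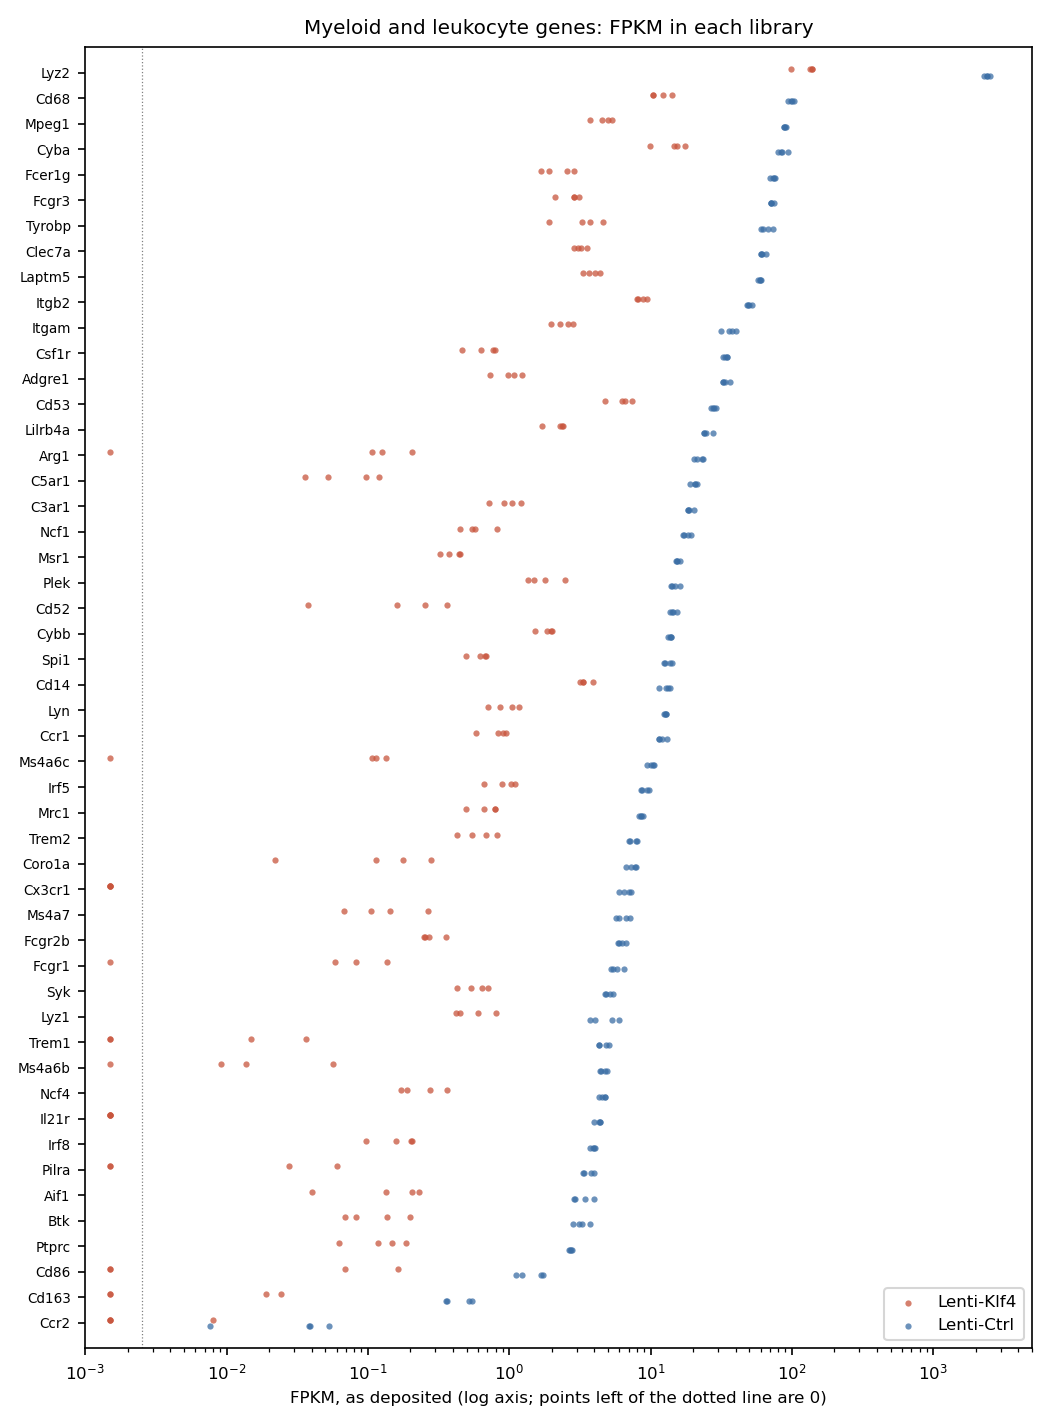
FPKM of each of the 50 genes in each library on a log axis, ordered by the mean in Lenti-Ctrl, with 4 Lenti-Klf4 points (red) and 4 Lenti-Ctrl points (blue) per gene; points left of the dotted line are at 0. Lenti-Klf4 points lie left of the Lenti-Ctrl points of the same gene in every row but that of Ccr2, where the highest Lenti-Klf4 library (0.00801) and the lowest Lenti-Ctrl library (0.00758) overlap, and the 2 genes with no Lenti-Klf4 count in any library are Cx3cr1 and Il21r.

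Of the 49 genes that passed the filter on low counts, all 49 were lower in Lenti-Klf4 by edgeR's quasi-likelihood test with Benjamini-Hochberg adjustment over all genes tested, the largest adjusted p being 9.26e-05 for Cd86. None was higher, at the adjusted threshold, at an unadjusted p below 0.05 or by DESeq2, limma-voom or limma on FPKM. The comparison moved much of the transcriptome: 72.2% of the 18439 genes tested were called, 34.7% lower and 37.5% higher. A log2 fold change below -2 with a call was reached by all 49 of these genes and by 9.06% of all genes tested. A log2 fold change below -4 was reached by 35 of the 49 and by 2.39% of all genes tested, and one below -6 by 10 and by 0.483%. Of these, 14 of the 35 and all 10 met the filter on low counts only through the Lenti-Ctrl libraries, so those counts are descriptions of genes that had to differ in order to be tested. The median log2 fold change was -4.57 over the 49 genes and 0.03 over all genes tested. Since the genes were chosen with earlier results of these data known, such contrasts with all genes are descriptions and no independent test. On the CPM scale all 50 genes had every Lenti-Klf4 library below every Lenti-Ctrl library, as did 33.2% of all genes tested, while 69.2% of those did not overlap in either direction. The other 35 of the 49 met the filter in the Lenti-Klf4 libraries alone. The remaining gene, the monocyte chemokine receptor Ccr2, fell below the filter.

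The genes differed in how much of the Lenti-Ctrl level was left. The median was 4.30% of the Lenti-Ctrl CPM, with 8 genes below 1%, 10 between 1% and 3%, 23 between 3% and 10%, and 9 above 10%. The 9 were Cd14, Cd53, Itgb2, Cyba, Cybb, Lyz1, Plek, Cd68 and Syk, and the highest, Cd14, kept 23.4%. Log2 fold changes of the genes with counts ran from -8.38 for Trem1 to -2.10 for Cd14, with standard errors of 0.0540 to 0.768 over the 49, so the ends of that order lie many standard errors apart while neighbours in it often do not. Counts were present in all 4 Lenti-Klf4 libraries for 39 genes and in some of them for 9.

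**Figure D2:**
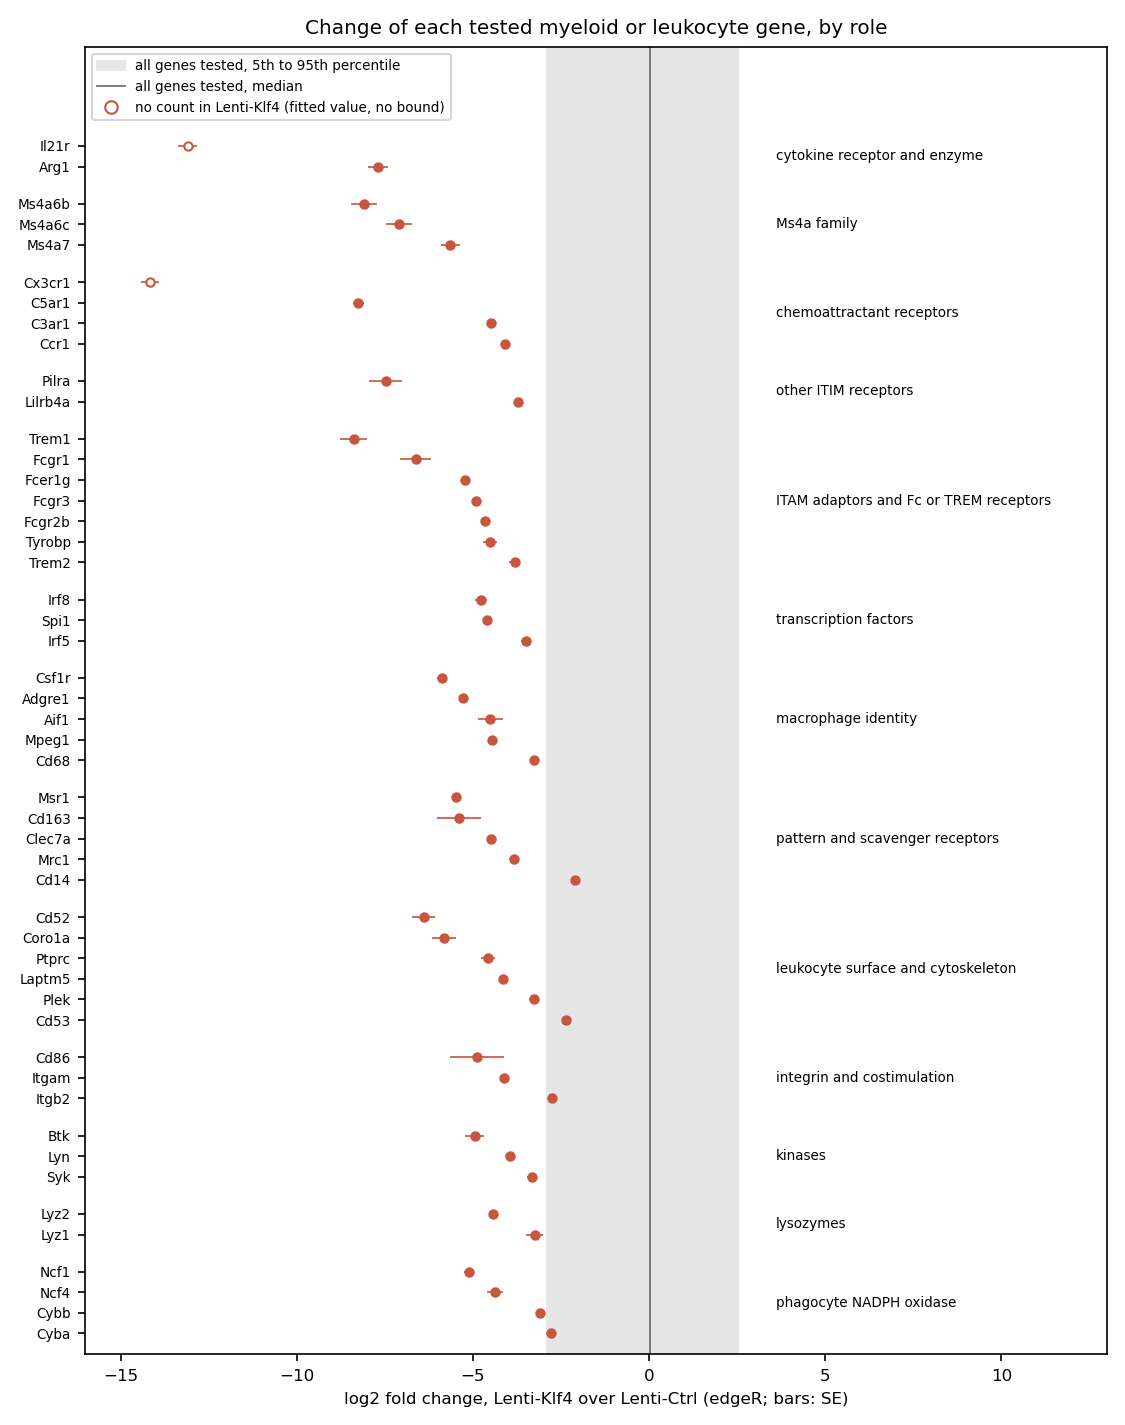
Log2 fold change, Lenti-Klf4 over Lenti-Ctrl, of the 49 tested genes by role, with bars for the standard error; the grey band spans the 5th to 95th percentile of all genes tested and the vertical line their median of 0.03. Most points lie left of the band, with Cd14, Cd53, Itgb2 and Cyba inside it, and the open points of Cx3cr1 and Il21r are fitted values of genes with no Lenti-Klf4 count and are no bound.

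The promoters of 4 genes towards both ends of that order are printed here from GRCm38.p6, 250 bases before to 50 after the transcription start. All 4 have a promoter in the RefSeq table. Cx3cr1 and Il21r had no count left in Lenti-Klf4, and Cyba and Cd53 kept 14.6% and 19.5% of their Lenti-Ctrl level. Cd14, which kept the most at 23.4%, and Itgb2, which kept 15.0%, are not shown, so the 4 do not cover the upper end of the order. Capitals mark GAGGAA or its reverse TTCCTC, letters found in PU.1 sites, and CCACCC or its reverse GGGTGG, letters found in sites of KLF factors.
Cx3cr1, chr9:120068247-120068546, minus strand: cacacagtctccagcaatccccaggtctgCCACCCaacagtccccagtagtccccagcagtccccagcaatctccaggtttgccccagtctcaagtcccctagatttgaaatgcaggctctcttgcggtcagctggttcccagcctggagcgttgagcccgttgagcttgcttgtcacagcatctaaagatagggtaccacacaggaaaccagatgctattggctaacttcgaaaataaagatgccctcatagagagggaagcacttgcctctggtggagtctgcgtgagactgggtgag
Il21r, chr7:125603179-125603478, plus strand: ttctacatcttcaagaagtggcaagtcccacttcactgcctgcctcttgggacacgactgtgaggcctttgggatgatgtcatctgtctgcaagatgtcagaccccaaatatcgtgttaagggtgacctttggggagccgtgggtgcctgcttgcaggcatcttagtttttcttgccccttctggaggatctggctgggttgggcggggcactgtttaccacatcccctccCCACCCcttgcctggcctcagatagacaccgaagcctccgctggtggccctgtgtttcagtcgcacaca
Cyba, chr8:122432891-122433190, minus strand: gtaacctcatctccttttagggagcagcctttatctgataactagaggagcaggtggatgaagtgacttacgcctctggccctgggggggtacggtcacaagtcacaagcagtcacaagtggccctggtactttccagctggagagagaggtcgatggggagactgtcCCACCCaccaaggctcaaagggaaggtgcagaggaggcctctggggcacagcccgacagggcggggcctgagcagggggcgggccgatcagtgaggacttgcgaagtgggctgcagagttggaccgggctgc
Cd53, chr3:106790100-106790399, minus strand: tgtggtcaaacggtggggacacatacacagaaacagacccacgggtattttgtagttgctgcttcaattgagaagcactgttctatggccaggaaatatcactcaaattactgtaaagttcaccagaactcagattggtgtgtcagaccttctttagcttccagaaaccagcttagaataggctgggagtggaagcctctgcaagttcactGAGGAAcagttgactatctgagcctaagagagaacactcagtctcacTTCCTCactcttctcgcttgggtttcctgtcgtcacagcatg
Cx3cr1, Il21r and Cyba each held CCACCC once and no GAGGAA, and Cd53 held GAGGAA on either strand and no CCACCC, so the letters did not follow the size of the fall among the 4. A promoter was found for 37 of the 50 genes. On either strand GAGGAA was in the promoters of 19 of the 37 (51.4%), against 31.3% of the 27025 genes with a promoter, and the longer GAGGAAG, which contains it, was in 9 (24.3%) against 15.4%. CCACCC was in 15 (40.5%) against 34.1%, and CCACACCC in 0 of 37 against 4.09%. Matches are descriptions of letters in this window, without a test.

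The leukocyte surface and cytoskeleton genes were Ptprc, Laptm5, Cd53, Cd52, Coro1a and Plek, and all 6 fell. Cd52, a small GPI-anchored antigen of leukocytes, fell most, with 0.0455, 0.193, 0.304 and 0.434 CPM in Lenti-Klf4, against 19.0, 21.4, 19.6 and 19.3 CPM in Lenti-Ctrl (log2 fold change -6.40, SE 0.33). Cd53, a leukocyte tetraspanin, moved least, with 8.41, 12.9, 10.9 and 11.6 CPM in Lenti-Klf4, against 56.0, 58.5, 53.1 and 56.4 CPM in Lenti-Ctrl (-2.36, SE 0.11). The Lenti-Ctrl libraries were close to each other for both genes, and the Lenti-Klf4 libraries were low throughout. Ptprc, the CD45 phosphatase common to nucleated blood cells, averaged 0.129 FPKM in Lenti-Klf4 and 2.72 FPKM in Lenti-Ctrl, and was 23.7-fold lower on the CPM scale. Coro1a, an actin regulator of leukocytes, was 55.7-fold lower. Laptm5, a lysosomal membrane protein, was 17.6-fold lower and Plek, the protein kinase C substrate pleckstrin, 9.54-fold lower.

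The macrophage identity genes were Csf1r, Adgre1, Aif1, Mpeg1 and Cd68, and all 5 fell. Csf1r fell most, with 2.74, 4.60, 4.44 and 3.67 CPM in Lenti-Klf4, against 224, 232, 230 and 216 CPM in Lenti-Ctrl (log2 fold change -5.89, SE 0.12). Cd68, a glycoprotein of lysosomes and endosomes, moved least, with 13.3, 15.5, 17.9 and 13.04 CPM in Lenti-Klf4, against 137, 146, 150 and 142 CPM in Lenti-Ctrl (-3.27, SE 0.09). The Lenti-Klf4 libraries still held 1056 counts of Csf1r and 4156 of Cd68, and the groups were far apart for both. Per transcript length Cd68 was the more abundant, at 11.8 FPKM in Lenti-Klf4 and 99.0 FPKM in Lenti-Ctrl, and Mpeg1, the pore-forming perforin-2, had 4.63 FPKM in Lenti-Klf4 and 88.9 FPKM in Lenti-Ctrl. Adgre1, the F4/80 antigen, was 38.4-fold lower, and Aif1, the actin-bundling protein IBA1, 22.8-fold lower.

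Of the lysozymes, the bacterial cell wall enzymes, mouse Lyz2 is the macrophage form and Lyz1 the form of the intestinal Paneth cell. Their coding sequences are alike enough for reads to be shared, as the opening 150 coding bases from GENCODE M21 (GRCm38, chromosome 10) show, with capitals at the 14 positions that differ.
Lyz2: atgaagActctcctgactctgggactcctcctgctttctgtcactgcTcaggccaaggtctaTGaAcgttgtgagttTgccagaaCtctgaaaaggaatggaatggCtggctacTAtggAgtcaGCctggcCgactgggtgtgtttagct
Lyz1: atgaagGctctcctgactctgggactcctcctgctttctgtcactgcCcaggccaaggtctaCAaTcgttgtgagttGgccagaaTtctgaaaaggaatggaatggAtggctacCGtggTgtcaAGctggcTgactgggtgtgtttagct
In the deposited table Lyz2 lies at chr10:117113236-117118226 and Lyz1 at chr10:117123702-117128773 (GRCm39, minus strand). Over the 447 coding bases 22 differ, and 16.1% of the 50-base words of Lyz1 transcripts are also in Lyz2. Lyz2 had 131, 184, 183 and 177 CPM in Lenti-Klf4, against 3525, 3842, 3650 and 3610 CPM in Lenti-Ctrl (log2 fold change -4.44, SE 0.10). Lyz1 had 0.580, 0.546, 1.03 and 0.775 CPM in Lenti-Klf4, against 8.74, 5.47, 5.85 and 7.76 CPM in Lenti-Ctrl (-3.25, SE 0.25). Both were low in every Lenti-Klf4 library, and Lyz2 was the most abundant of the 50 genes in either group, at 128 FPKM in Lenti-Klf4 and 2407 FPKM in Lenti-Ctrl. The Lyz1 value is uncertain, since no source used here gives the authors' handling of shared reads.

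All 7 genes of the ITAM adaptors and the Fc and TREM receptors fell. Trem1, an amplifier of inflammatory signals on myeloid cells at chr17:48539796-48553952, had 0.0569, 0, 0 and 0.124 CPM in Lenti-Klf4, against 15.0, 17.7, 16.8 and 14.9 CPM in Lenti-Ctrl (log2 fold change -8.38, SE 0.39). Trem2, a lipid-sensing receptor at chr17:48653429-48661175 (GRCm39), 99.5 kb from Trem1, moved least, with 2.16, 4.07, 2.74 and 3.41 CPM in Lenti-Klf4, against 40.7, 45.9, 40.8 and 44.6 CPM in Lenti-Ctrl (-3.81, SE 0.16). The neighbours thus kept different parts of their Lenti-Ctrl level, 0.281% for Trem1 and 7.19% for Trem2, and their transcripts share no 50-base word. Trem1 rests on 13 counts over the Lenti-Klf4 libraries, and without Lenti-Klf4 replicate 4 its log2 fold change was -9.34. Tyrobp, the adaptor of both TREM receptors, and Fcer1g, that of activating Fc receptors, were lower as well: Tyrobp averaged 3.39 FPKM in Lenti-Klf4 and 66.2 FPKM in Lenti-Ctrl, and Fcer1g 2.26 FPKM in Lenti-Klf4 and 73.6 FPKM in Lenti-Ctrl. Among Fc receptors, which bind the constant part of IgG, the high-affinity Fcgr1 was 93.3-fold lower (log2 fold change -6.62, and -7.22 without Lenti-Klf4 replicate 4), the activating Fcgr3 30.1-fold lower and the inhibitory Fcgr2b 25.0-fold lower. Fcgr2b and Fcgr3 share 4.48% and 10.2% of their 50-base words, so reads could be divided between them.

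Both other receptors with ITIM motifs fell. Pilra, an inhibitory receptor for sialylated ligands, had 0.0910, 0.193, 0 and 0 CPM in Lenti-Klf4, against 14.3, 12.1, 13.5 and 12.0 CPM in Lenti-Ctrl (log2 fold change -7.47, SE 0.47). Lilrb4a had 9.12, 12.5, 12.4 and 12.1 CPM in Lenti-Klf4, against 145, 150, 167 and 144 CPM in Lenti-Ctrl (-3.72, SE 0.10). Pilra was near or at 0 in Lenti-Klf4, with a log2 fold change of -8.43 without Lenti-Klf4 replicate 2, whereas Lilrb4a kept 7.63% of its Lenti-Ctrl level. Lilrb4a shares 28.4% of its 50-base words with its neighbour Lilr4b and its value is uncertain for that reason, as is that of Pilra, which shares 4.66% with Pilrb1.

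All 3 kinases downstream of these receptors fell. Btk, the kinase that activates phospholipase C gamma, had 0.228, 0.627, 0.441 and 0.264 CPM in Lenti-Klf4, against 11.5, 12.1, 13.6 and 10.3 CPM in Lenti-Ctrl (log2 fold change -4.95, SE 0.27). Syk moved least, with 4.06, 6.07, 6.72 and 5.07 CPM in Lenti-Klf4, against 56.3, 58.9, 51.1 and 51.6 CPM in Lenti-Ctrl (-3.32, SE 0.13). Lyn was 15.4-fold lower. The groups were far apart for each kinase, and Lenti-Klf4 replicate 1 was the lowest library for all 3.

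The pattern and scavenger receptors Cd14, Cd163, Mrc1, Msr1 and Clec7a all fell. Msr1, the class A scavenger receptor, fell most, with 2.08, 2.81, 2.39 and 2.88 CPM in Lenti-Klf4, against 113, 111, 112 and 117 CPM in Lenti-Ctrl (log2 fold change -5.49, SE 0.08). Cd14, the co-receptor that hands bacterial lipopolysaccharide to TLR4, moved least of all 49 tested genes, with 5.91, 6.81, 5.57 and 5.77 CPM in Lenti-Klf4, against 26.1, 23.1, 26.5 and 27.2 CPM in Lenti-Ctrl (-2.10, SE 0.09). The Lenti-Klf4 libraries lay close together for both genes, and for Cd14 they kept a level near 6 CPM in each. Clec7a, the fungal glucan receptor dectin-1, averaged 3.20 FPKM in Lenti-Klf4 and 61.8 FPKM in Lenti-Ctrl. Mrc1, the mannose receptor, was 14.2-fold lower. Cd163, the haemoglobin scavenger receptor, was low in both groups, at 0.0108 FPKM in Lenti-Klf4 and 0.446 FPKM in Lenti-Ctrl.

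The transcription factors Spi1, Irf5 and Irf8 fell. Irf8, required for monocyte and dendritic cell development, had 0.694, 1.46, 1.14 and 1.44 CPM in Lenti-Klf4, against 30.6, 33.2, 32.0 and 31.9 CPM in Lenti-Ctrl (log2 fold change -4.77, SE 0.18). Irf5, a factor of inflammatory cytokine expression, had 2.00, 3.25, 2.60 and 3.02 CPM in Lenti-Klf4, against 28.7, 29.4, 31.5 and 32.6 CPM in Lenti-Ctrl (-3.50, SE 0.13). Neither gene's groups came near each other. Spi1 averaged 0.619 FPKM in Lenti-Klf4 and 13.3 FPKM in Lenti-Ctrl, 24.4-fold lower on the CPM scale.

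Integrin and costimulation genes fell in all 3 cases, by very different amounts. Cd86, a ligand of CD28 on T cells, had 0, 0.257, 0 and 0.605 CPM in Lenti-Klf4, against 7.35, 7.21, 5.18 and 4.67 CPM in Lenti-Ctrl (log2 fold change -4.88, SE 0.77). Itgb2, the beta chain shared by leukocyte integrins, had 24.8, 27.0, 24.8 and 28.7 CPM in Lenti-Klf4, against 171, 186, 175 and 170 CPM in Lenti-Ctrl (-2.74, SE 0.05). Itgam, the alpha chain that pairs with it to form CD11b/CD18, had 10.1, 14.3, 13.2 and 11.6 CPM in Lenti-Klf4, against 209, 235, 182 and 217 CPM in Lenti-Ctrl (-4.11, SE 0.11). The beta chain thus kept 15.0% of its Lenti-Ctrl level and the alpha chain 5.83%, a difference larger than the standard errors of either. Cd86 had the widest standard error of the 49 genes and rests on 55 counts in Lenti-Klf4. Without Lenti-Klf4 replicate 4, its highest, the log2 fold change was -6.28.

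The 4 tested chemoattractant receptors fell, and this role held one of the 2 genes with no Lenti-Klf4 count. Cx3cr1, the fractalkine receptor (chr9:119877749-119898945, GRCm39), had 0 CPM in all 4 Lenti-Klf4 libraries, against 37.9, 33.8, 36.5 and 30.7 CPM in Lenti-Ctrl. Against a floor of 3 counts over the 4 Lenti-Klf4 libraries it was at least 3245-fold lower. Ccr1, a receptor for CCL3 and CCL5, moved least, with 1.68, 2.70, 2.60 and 2.37 CPM in Lenti-Klf4, against 37.6, 38.0, 39.3 and 42.1 CPM in Lenti-Ctrl (log2 fold change -4.08, SE 0.13). The anaphylatoxin receptors differed from each other: C5ar1 was 301-fold lower, with 55 counts left in Lenti-Klf4, and C3ar1 22.3-fold lower, with 1161. Ccr2, whose gene lies 133 kb from Ccr1 on chromosome 9, was scarce in both groups, with 0, 0, 4 and 0 counts in Lenti-Klf4 and 25, 5, 23 and 17 counts in Lenti-Ctrl. Without the filter its log2 fold change was -4.07 (SE 1.22) and edgeR's adjusted p 0.0159. It also entered the DESeq2 fit and 5 of the edgeR fits that left out a library, and over these 7 fits the adjusted p was 0.00113 to 0.0159. Transcripts of this CCL2 receptor, which marks incoming monocytes, were thus near the limit of detection in both groups.

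All 3 Ms4a genes, membrane proteins clustered on chromosome 19, fell, and their summed level, 0.943 ± 0.429 CPM in Lenti-Klf4 and 80.8 ± 5.64 CPM in Lenti-Ctrl (SD, n = 4 each), was 85.7-fold lower. Ms4a6b had 0.0455, 0.257, 0 and 0.0620 CPM in Lenti-Klf4, against 25.6, 22.7, 24.7 and 22.9 CPM in Lenti-Ctrl (log2 fold change -8.09, SE 0.36). Ms4a7 moved least, with 0.489, 0.643, 1.22 and 0.310 CPM in Lenti-Klf4, against 34.5, 31.2, 36.3 and 29.0 CPM in Lenti-Ctrl (-5.63, SE 0.27). Without Lenti-Klf4 replicate 2 the log2 fold change of Ms4a6b was -9.30. Ms4a6c was 129-fold lower. Lenti-Ctrl libraries were even across the family while the Lenti-Klf4 libraries scattered at counts near 0. Ms4a6b shares 4.14% of its 50-base words with Ms4a6c, which lies 34.3 kb away, so these values may hold shared reads.

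The phagocyte NADPH oxidase, the enzyme that makes superoxide, kept more of its Lenti-Ctrl level than most roles, 10.1% of the summed CPM, although all 4 genes fell. Ncf1, the cytosolic organiser p47phox, fell most, with 2.05, 3.02, 1.67 and 2.16 CPM in Lenti-Klf4, against 73.7, 72.5, 77.9 and 81.4 CPM in Lenti-Ctrl (log2 fold change -5.11, SE 0.13). Cyba, the membrane subunit p22phox, moved least, with 10.6, 15.9, 15.3 and 18.4 CPM in Lenti-Klf4, against 102, 113, 102 and 95.4 CPM in Lenti-Ctrl (-2.78, SE 0.13). The membrane subunits thus kept more than the cytosolic ones: Cyba kept 14.6% and its catalytic partner Cybb 11.7%, against 4.89% for Ncf4 and 2.91% for Ncf1. No test of that split was made. Among the relatives of the enzyme in other genes, Nox4, the oxidase of fibroblasts and other non-myeloid cells, was lower (-1.14, SE 0.09), as was Rac1, the ubiquitous GTPase of the complex (-0.28, SE 0.02). Duox1 was higher (1.18, SE 0.42) and Noxo1 was not called, at 0.431 CPM in Lenti-Klf4 and 0.237 CPM in Lenti-Ctrl. Nox1 and Duox2 were too scarce for the test, with 32 and 47 counts in Lenti-Klf4 and 7 and 29 counts in Lenti-Ctrl.

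The last role joins a cytokine receptor and an enzyme, both nearly or wholly without counts in Lenti-Klf4. Il21r, the interleukin-21 receptor (chr7:125202601-125232444, GRCm39), had 0 CPM in all 4 Lenti-Klf4 libraries, against 15.5, 16.8, 16.8 and 16.8 CPM in Lenti-Ctrl, at least 1538-fold lower against the floor of 3 counts. Arg1, the arginine-degrading enzyme of alternatively activated macrophages, had 0.273, 0, 0.319 and 0.481 CPM in Lenti-Klf4, against 59.8, 52.8, 54.2 and 60.0 CPM in Lenti-Ctrl (log2 fold change -7.70, SE 0.29). Arg1 stood at 22.0 FPKM in Lenti-Ctrl, above Spi1 and Ptprc, and kept 0.473% of its CPM in Lenti-Klf4.

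Partners of these genes outside the 50 mostly moved with them. The counts per list below stand beside 34.7% lower and 37.5% higher over all genes tested. All 17 tested ITAM signalling partners fell, their median log2 fold change being -4.39, and the smallest adjusted p-values by edgeR belonged to Pik3ap1, Nckap1l and Inpp5d, the last a phosphatase that opposes ITAM signals (-6.34, SE 0.19). Of 12 tested Kupffer cell genes 11 fell. The leading ones by adjusted p were C1qc, C1qb and Vsig4, whose products are complement components and a complement receptor. Clec4f and Cd207 had no count in Lenti-Klf4 and averaged 16.5 and 23.5 CPM in Lenti-Ctrl, at least 1544-fold and 2195-fold lower. Timd4, also without a count in Lenti-Klf4, was too scarce for the test, with 8, 16, 0 and 4 counts in Lenti-Ctrl. Slc40a1, the iron exporter ferroportin, was not called, at 27.7 ± 0.934 CPM in Lenti-Klf4 and 29.3 ± 3.23 CPM in Lenti-Ctrl (SD, n = 4 each). Among 10 other myeloid transcription factors 7 fell, Cebpa (-2.77) and Ikzf1 (-6.59) among them. Cebpb was higher, at 188 CPM in Lenti-Klf4 and 116 CPM in Lenti-Ctrl (0.70, SE 0.04), while Irf4 and Batf3, at under 1 CPM in both groups, were not called. MHC class II genes fell in 5 of 7 cases, led in adjusted p by H2-Ab1 (-3.50), H2-DMb1 (-1.93) and H2-DMa (-1.66). Their invariant chain Cd74 was higher (1.30, SE 0.20), and the class II regulator Ciita was not called, at 0.4998 CPM in Lenti-Klf4 and 0.144 CPM in Lenti-Ctrl, and was higher with library totals alone (adjusted p = 0.0366 by edgeR).

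The ligands of these receptors did not move together, with 3 lower, 5 higher and 1 not called of 9 tested. Over all genes tested 34.7% were lower and 37.5% higher. Csf1, the ligand of CSF1R, stood at 543 ± 13.3 CPM in Lenti-Klf4 and 2294 ± 33.8 CPM in Lenti-Ctrl (SD, n = 4 each; log2 fold change -2.08, SE 0.02). Il34, the other CSF1R ligand, was higher but scarce, at 2.96 CPM in Lenti-Klf4 and 1.21 CPM in Lenti-Ctrl (1.27, SE 0.34). Cx3cl1, the fractalkine that CX3CR1 binds, was lower, at 6.53 CPM in Lenti-Klf4 and 60.5 CPM in Lenti-Ctrl (-3.21, SE 0.08). The monocyte chemokines that CCR2 binds were higher: Ccl2 reached 167 CPM in Lenti-Klf4 and 34.4 CPM in Lenti-Ctrl (2.28, SE 0.05), and Ccl7 102 CPM in Lenti-Klf4 and 12.6 CPM in Lenti-Ctrl (3.02, SE 0.08). C3, the precursor of the C3AR1 ligand, was at 486 CPM in Lenti-Klf4 and 62.7 CPM in Lenti-Ctrl (2.96, SE 0.05). Of the CCR1 ligands, Ccl3 was lower (-3.35, SE 0.44) and Ccl5 higher (1.37, SE 0.26). Hc, the complement C5 gene, was not called, at 0.422 CPM in Lenti-Klf4 and 0.0615 CPM in Lenti-Ctrl, and Il21 had 6 counts in Lenti-Klf4 and 0 in Lenti-Ctrl.

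Markers of other cell types also differed between the groups, as did 72.2% of all genes tested, 34.7% lower and 37.5% higher. The summed neutrophil list was 3.88 to 4.71 CPM in Lenti-Klf4 and 16.0 to 17.5 CPM in Lenti-Ctrl. Mmp8, Mmp9 and Csf3r were lower, and Mmp8 and Mmp9 held most of that sum, at 9.75 and 3.92 CPM in Lenti-Ctrl. S100a8 was not called at 0.308 CPM in Lenti-Klf4 and 0.914 CPM in Lenti-Ctrl. Too scarce for the test were S100a9, Camp and Cxcr2, with 36, 33 and 4 counts in Lenti-Klf4 and 0, 4 and 0 in Lenti-Ctrl. So was Ltf, with 4 counts in Lenti-Klf4 and 38 in Lenti-Ctrl. The defining Ly6g and Mpo were at 0 in all 8 libraries. The lymphocyte list summed to 6.22 to 8.29 CPM in Lenti-Klf4 and 8.55 to 11.7 CPM in Lenti-Ctrl, with Cd3d and Cd3g at 0 in all 8 libraries. In it 3 genes were lower, Cd4 among them, 3 were higher, Lck among them, and Prf1 was not called at 0.173 CPM in Lenti-Klf4 and 0.176 CPM in Lenti-Ctrl. Itgax and Zbtb46 of the dendritic cell list were lower, Zbtb46 (-0.38) not with library totals alone (-0.18, adjusted p = 0.164 by edgeR), and that list summed to 7.83 to 9.83 CPM in Lenti-Klf4 and 20.5 to 24.0 CPM in Lenti-Ctrl. Of the mast cell list Kit was lower and Hdc higher, and 4 of its genes were too scarce for the test. Its sum was 0.643 to 1.46 CPM in Lenti-Klf4 and 5.83 to 6.62 CPM in Lenti-Ctrl. Most of that sum was Kit alone, at 0.694 CPM in Lenti-Klf4 and 6.15 CPM in Lenti-Ctrl. Of the erythroid and platelet list Pf4 was lower, Itga2b higher and Ppbp not called at 0.267 CPM in Lenti-Klf4 and 0.136 CPM in Lenti-Ctrl, while 5 globin and red cell genes had no count in Lenti-Ctrl.

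All 11 tested endothelial genes fell, led in adjusted p by Cdh5, Kdr and Pecam1, and their sum was 40.3 to 58.9 CPM in Lenti-Klf4 and 312 to 316 CPM in Lenti-Ctrl. All 9 fibroblast genes were lower by less, at a median of -0.98 on the log2 scale, led in adjusted p by Fn1, Col1a1 and Pdgfrb, except that Pdgfra (-0.16) was at 0.03 and not called with library totals alone. Of the 10 tested portal fibroblast genes 3 were lower, Eln (-5.70) and Fbln2 among them, and 5 higher, Ly6a (3.69) among them, with Entpd2 and Pi16 not called. Hepatocyte genes were 2 lower, Ass1 and Apob, and 3 higher, Cps1 among them. Cholangiocyte genes were 4 higher, led in adjusted p by Sox9, Krt7 and Krt19, 1 lower and 3 not called, Epcam and Cftr being the most abundant of the last. With 34.7% of all genes tested lower and 37.5% higher, mixed counts such as those of the portal fibroblast list are near the shares over all genes. The part of other cell types in the fall of the 50 genes was not tested.

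**Figure D3:**
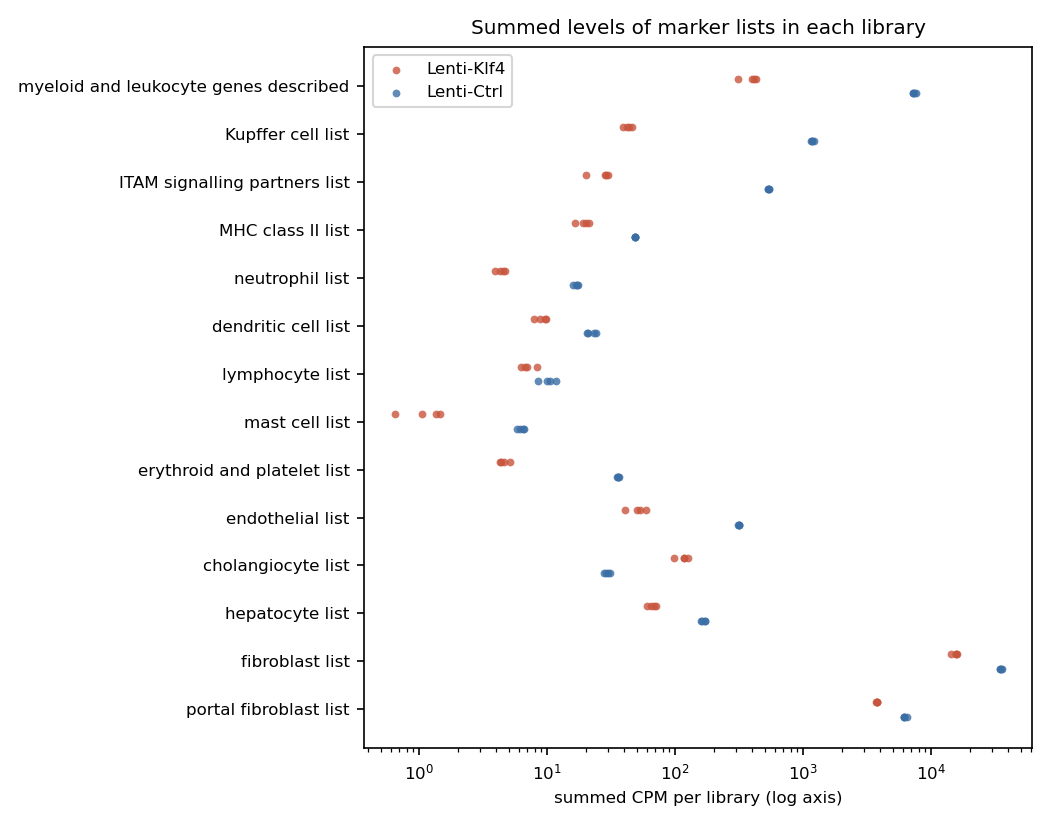
Summed CPM of the 50 genes and of 13 marker lists in each library on a log axis, with Lenti-Klf4 in red and Lenti-Ctrl in blue. The 50 genes lie at 310 to 425 CPM in Lenti-Klf4 and at 7162 to 7588 CPM in Lenti-Ctrl. The groups are apart in every list shown, and the cholangiocyte list is the one with the higher Lenti-Klf4 sum. A sum follows its most abundant genes. Most of the portal fibroblast sum is Fbln2, which was lower, while 5 of 10 tested genes of that list were higher. Most of the hepatocyte sum is Ass1 and Apob, which were lower, while 3 of 5 tested genes of that list were higher.

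Lenti-Klf4 replicate 1 stood apart from the other Lenti-Klf4 libraries. Over 30 of the 50 genes with more than 100 counts on average in Lenti-Klf4, its median deviation from the group mean was -0.35 on the log2 scale, against 0.18, 0.06 and 0.007 in replicates 2, 3 and 4. This library had the most counts of its group, 82847723 against 57950960 to 61367261, yet the summed raw counts of the 50 genes were nearly equal, at 27250, 26453, 27100 and 25763 in Lenti-Klf4 replicates 1 to 4. In Lenti-Ctrl the summed counts were 582459, 444089, 394709 and 393352 and followed the totals of 87361995, 62914436, 57306334 and 57787341. The same Lenti-Klf4 library was also lowest in the endothelial sum, the fibroblast sum and Klf4, and the 406 other genes with a called log2 fold change below -4 summed to 1179 CPM in it against 1368 to 1419 CPM in the other Lenti-Klf4 libraries and 32309 to 32785 CPM in Lenti-Ctrl. Without that library all 50 genes were tested and called lower, with a median log2 fold change of -4.47. The spread within groups was wider in Lenti-Klf4, where the median coefficient of variation was 23.1% over the genes with a count and 18.5% over those 30, while it was 5.65% over all 50 genes in Lenti-Ctrl.

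**Figure D4:**
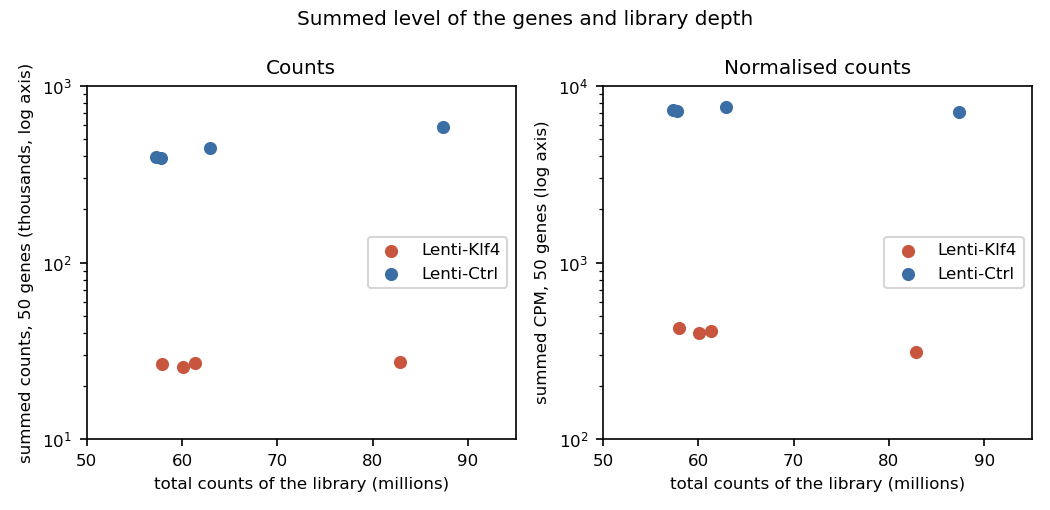
Summed counts (left) and summed CPM (right) of the 50 genes in each library, on log axes, against the library's total counts; Lenti-Klf4 is red and Lenti-Ctrl blue. Summed counts of the Lenti-Klf4 libraries are level at 25763 to 27250 across depth, so their deepest library has the lowest CPM, 310, while the Lenti-Ctrl libraries differ little in CPM.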

How the data were processed

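Poly(A) RNA of 4 Lenti-Klf4 and 4 Lenti-Ctrl libraries was sequenced with strand marking by dUTP, per the labels' protocols. Among the tools in the submitters' processing notes are HISAT2 2.2.1, StringTie 2.1.6, cutadapt 1.9 and DESeq2, with the build GRCm39; the counting tool, its strand setting and its handling of shared reads are not given in the sources used here. The authors deposited a table of raw counts and FPKM per gene and library, and a DESeq2 table of their comparison with log2 fold change, its SE, p-value, mean signal over libraries and Wald score. Counts were tested here with edgeR 4.0.16 (R 4.3.3): filterByExpr, TMM factors, quasi-likelihood test on group, and Benjamini-Hochberg adjustment over 18439 genes at 0.05. CPM are counts scaled by TMM library sizes, and fold values are ratios of mean CPM. FPKM served for levels between genes. Alternatives used DESeq2 1.42.0 and limma 3.58.1. Precision is limited by counts below about 100 in Lenti-Klf4. The floor for a count of 0 was 3 counts over the group and covers counting error only. It takes no account of the uneven spacing of small counts, so the fold bounds drawn from it may be too large. Standard errors were derived from the quasi-likelihood F test, as the size of the log2 fold change over the square root of F. They may be too small for genes with few or no Lenti-Klf4 counts. SDs are between libraries. Procedures were tested on simulated data.

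The 50 genes and the 16 comparison lists were chosen with earlier results of these data known. All 50 are named. Each list contributes its 3 tested genes with the smallest adjusted p and its 2 most abundant not called, and the ligand and oxidase lists every gene with a count. Some genes that this rule names are not reported here. Other list genes (Clec4f, Cd207, Timd4, Clec3b, Vim, Pdgfra, Cd3d, Cd3g, Ly6g, Mpo, S100a9, Camp, Cxcr2 and Ltf) were named after their values were seen. Values in every library are given for the gene with the largest and the smallest change in each role. For Itgam, named in full beside its partner chain, the choice was made after its values were seen. Of 175 list genes 17 are not analysed here. Replicate numbers were not said to mark shared mice or days, and the libraries were not paired. Promoters are from RefSeq (GRCm38.p6) and lysozyme coding sequences from GENCODE M21 (GRCm38); gene positions and distances are those of the deposited table (GRCm39).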

Additional observations from a re-analysis of the deposited data

Results flagged for a closer look

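The gap of an extreme library to its nearest neighbour, over the range of its group, was above Dixon's 95% value for 4 libraries in 5 of 100 groups tested (50 genes in 2 groups), and chance gives about 1 in 20. In Lenti-Klf4, Lyz2 was low in replicate 1, at 131 CPM against 177 to 184 CPM in the other 3, and Lilrb4a was low in the same library, at 9.12 CPM against 12.1 to 12.5 CPM. Ccr2 in Lenti-Klf4 was at 0.0608 CPM in replicate 3 and at 0 in the others. In Lenti-Ctrl, Adgre1 was high in replicate 3, at 136 CPM against 122 to 124 CPM, and Il21r was low in replicate 1, at 15.5 CPM against 16.8 CPM in each of the others.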

How the results depend on the processing

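Under 9 other settings, the replicate block and 8 fits that left out a library, every tested gene of the 50 remained lower, at 49 or 50 calls depending on whether Ccr2 entered, and 882 alternative values of single genes kept their direction and their side of the threshold. Leaving out a library moved 5 of them by over 1.5 times: Cd86 to -6.28, Fcgr1 to -7.22 and Trem1 to -9.34 without Lenti-Klf4 replicate 4, and Ms4a6b to -9.30 and Pilra to -8.43 without Lenti-Klf4 replicate 2. The median log2 fold change of the genes was -4.37 with library totals alone, -4.05 on log2 FPKM with 0.1 added and -2.68 with 1 added, where the added value compresses low genes. The summed level had a log2 ratio of -4.27 to -4.05 under other scalings or without Lyz2, an alternative chosen after seeing the data, and of -4.29 to -4.15 when a library was left out. Among all genes, testing against a change of 1 on the log2 scale called 4674 genes, 2415 lower and 2259 higher, and still all 49. The split moved with the scaling: 6393 lower and 6914 higher by TMM, 5172 lower and 8328 higher with library totals, which shift the median of all genes by 0.19 to 0.23, and 5237 lower and 8529 higher on log2 FPKM with 1 added. Leaving out a library gave 13039 to 13188 calls, 6158 to 6533 lower and 6604 to 6917 higher. With the replicate block, 12918 genes were called, 6188 lower and 6730 higher. Same-numbered libraries of the 2 groups correlated at 0.019 to 0.049 in their deviations from the group means. Differently numbered ones correlated at -0.043 to 0.022. All these correlations are weak, and whether replicate numbers mark a shared batch was not tested. Depth limits the 14 genes tested only through Lenti-Ctrl, whose Lenti-Klf4 counts are few.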

Other observations

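The authors' deposited table holds 20 of the 50 genes among 11361, all marked down, with log2 fold changes of -5.35 to -2.18 in the authors' deposited table, and none differed from the edgeR value by more than 0.0842. The other 30 were not described from it.

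Small counts were unevenly spaced in the deposited counts: over 32859 genes in 8 libraries, 7839 values were 4, against 3946 that were 3 and 2440 that were 5, and 4010 were 8, against 2348 that were 7 and 1729 that were 9. Trem1, Pilra and the other genes with few Lenti-Klf4 counts rest on such values.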
